A study of Mus musculus with 18 samples.

Results

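The 36 genes described here encode soluble enzymes, cofactors and membrane proteins of the lysosome, the acidic compartment in which cells break down protein, glycan, lipid and organelles. They were taken by symbol from a fixed list, whose names were looked up among the 55270 genes of the expression table. All 36 were found, and all 36 were among the 19443 genes with enough reads to test. By role they comprise 11 peptidases, 10 glycosidases and sulfatases, 5 lipid hydrolases, 3 soluble cofactors or lipid carriers and 7 membrane proteins. Poly-A RNA of the mouse substantia nigra, a midbrain region that holds dopaminergic neurons, was sequenced at 3 months of age in 18 libraries. The groups were 6 wild-type mice called intact, for which no treatment is named, 6 mice that overexpressed GFP from an adeno-associated virus (AAV-GFP) and 6 that overexpressed SIRT3, a mitochondrial deacetylase, in the same way (AAV-SIRT3). Genotype is labelled WT throughout, and tissue was taken about a month after the virus. The serotype and promoter of the virus, the cells it entered and the injection site are not given in the sources used here. AAV-GFP against intact therefore compares mice that received a vector with mice for which none is named, and AAV-SIRT3 against AAV-GFP compares the 2 vectors.

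Lysosomal enzymes are made in the endoplasmic reticulum, tagged with mannose 6-phosphate, carried by receptors from the Golgi to endosomes and released where the vacuolar ATPase has lowered the pH. Many of their genes carry CACGTG boxes near the start of transcription that are bound by TFEB, TFE3 and MITF, and longer forms such as TCACGTGA are known as CLEAR elements. In brain, inherited loss of many of these proteins causes storage disease with neurodegeneration, and microglia, the resident phagocytes, are rich in cathepsins.

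Promoter windows from the RefSeq table (build GRCm38.p6), reaching from 250 bases before to 50 bases after an annotated start, were found for 32 of the 36 genes. The motif CACGTG, which reads the same on both strands, lay in a window of 13 of these 32 genes (40.6%). The same motif lay in a window of 10.8% of the 13381 tested genes with one and of 8.09% of all 27025 genes in that table. The longer TCACGTGA, each copy of which holds a CACGTG, was found for 5 of 32 genes (15.6%), against 1.87% of the tested genes. The sites of members that differed between groups are shown because those genes are described in full further on, with CACGTG in capitals. Each is 5′ to 3′ on the strand of its gene.
Ctsa: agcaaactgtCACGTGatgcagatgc
Ctsa: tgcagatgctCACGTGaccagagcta
Ctsd: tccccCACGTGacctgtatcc
Ctsd: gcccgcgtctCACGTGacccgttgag
Ctsf: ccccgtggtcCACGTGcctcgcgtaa
Sgsh: gcctgccgtgCACGTGaccgtgggga
Cln3: aaccctcaagCACGTGatggaaggct
Cln3: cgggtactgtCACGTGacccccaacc

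Relative to the annotated start, the first base of the motif lay at -12 and 5 in Ctsa (chr2:164833751-164833776 and chr2:164833768-164833793, plus strand) and at -245 and -98 in Ctsd (chr7:142388057-142388077 and chr7:142387910-142387935, minus strand). It lay at -79 in Ctsf (chr19:4855076-4855101, plus strand), at -29 in Sgsh (chr11:119355524-119355549, minus strand), and at -149 and -121 in Cln3 (chr7:126583370-126583395 and chr7:126583342-126583367, minus strand). These starts are those of RefSeq, and bases before them can lie in GENCODE exons of the same or another gene. Of the 250 bases before the start, such exons cover 164 in Ctsa, 211 in Ctsd, 35 in Ctsf, 105 in Sgsh and 250 in Cln3. Lamp1, with 4 copies, had more than any other member. Its 250 bases before the start (chr8:13158911-13159160, plus strand) are set beside those of Ctss (chr3:95526536-95526785, plus strand), the member with the largest difference from intact mice, in which no CACGTG was found.
Lamp1: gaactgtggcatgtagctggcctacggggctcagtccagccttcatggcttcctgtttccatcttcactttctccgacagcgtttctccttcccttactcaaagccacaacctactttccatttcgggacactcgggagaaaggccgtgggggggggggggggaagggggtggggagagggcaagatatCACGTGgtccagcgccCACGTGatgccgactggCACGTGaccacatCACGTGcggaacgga
Ctss: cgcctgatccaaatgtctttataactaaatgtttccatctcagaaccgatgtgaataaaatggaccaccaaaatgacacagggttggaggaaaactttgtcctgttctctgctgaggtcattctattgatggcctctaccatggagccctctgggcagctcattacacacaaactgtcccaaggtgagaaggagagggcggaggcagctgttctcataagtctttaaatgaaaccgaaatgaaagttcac

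Among the 9 members with a window that were higher in AAV-SIRT3 than in intact mice, 5 held CACGTG (55.6%), and among the 22 with a window that did not pass the threshold in that comparison, 7 did (31.8%). The 5 were Ctsa, Ctsd, Ctsf, Lamp1 and Cln3, and each missed the threshold without AAV-SIRT3 replicate 6. Ctss, Grn and Npc2, which passed it in every alternative fit, held no CACGTG. The difference between these shares was not tested. GAGGAAGT, a purine-rich motif of the kind bound by the myeloid factor PU.1, was searched on both strands and lay in a window of Ctss, Ctsc, Gusb and Gla (12.5% of 32), against 3.3% of the tested genes. A match describes the letters of the window and no binding was measured.

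The libraries held 47182529 to 64728587 reads assigned to genes. Sirt3 itself had 1824 ± 66.3 normalised reads in intact mice, and the AAV-GFP and AAV-SIRT3 groups had 1775 ± 92.4 and 1937 ± 79.4 (SD, n = 6 each), a difference of 0.13 on the log2 scale between the vectors that did not pass the threshold (limma with Benjamini-Hochberg adjustment, adjusted p = 0.183), so it gives no clear check of the labels. Whether reads of the SIRT3 transgene are counted in it is not given in the sources used here. Th, the rate-limiting enzyme of dopamine synthesis, was present in every library (3673 to 6637), as was the dopamine transporter gene Slc6a3. Slc6a3 was lower in AAV-GFP than in intact mice (log2 difference -0.44, limma with Benjamini-Hochberg adjustment, adjusted p = 0.0263). This difference passed the threshold in 15 of 18 fits that leave out 1 library. In AAV-SIRT3 against intact the log2 difference of Slc6a3 was -0.11 (limma, adjusted p = 0.457). Prkcd, a thalamus marker, lay at 7651, 7763 and 9445 in intact replicates 1, 3 and 5 and between 18060.2 and 26600.1 in the other 15 libraries. The same 3 libraries had the highest Slc6a3 of the intact group, at 12027, 12867 and 12119. Intact replicates 2, 4 and 6 had 9283, 10178 and 9900. Fits without those 3 libraries of low Prkcd are given with the results. The summed level of 8 choroid plexus genes was 50270 in intact replicate 2 and 44543 in AAV-GFP replicate 5. It lay between 1237 and 6063 in the other libraries. In bulk tissue, a different number of cells of a type and a different amount of RNA per cell cannot be told apart.

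The level of the members spanned a wide range. Scaled to exonic length, the intact mean ran from 101 normalised reads per kb for Ctsc to 28799 for Psap. Psap encodes prosaposin, the precursor of the saposins, which present sphingolipids to their hydrolases, and it stood first among all 36. The members next in order were Lamp1, a heavily glycosylated protein of the limiting membrane, at 8723 ± 351 and Gaa, the glycogen-degrading acid alpha-glucosidase, at 7817 ± 619 (SD, n = 6). Ctsb, a cysteine protease, followed at 5645 ± 226, then Ctsd, the main aspartic protease, at 4233 ± 86.0. Lgmn, an asparagine-specific endopeptidase, was at 4216 ± 406, so Ctsd and Lgmn did not differ beyond their spread. Ctss, a cysteine protease made in brain mainly by microglia, was at 3254 ± 169. Among the lipid hydrolases Smpd1, acid sphingomyelinase, was highest at 2455 ± 181. The lowest members were Ctsc, Galc (121 ± 4.78), Ctsh (134 ± 15.7), Cln3 and Sgsh. Within the intact group the coefficient of variation of a member ran from 1.17% for Tpp1, the tripeptidyl peptidase lost in a childhood neuronal ceroid lipofuscinosis, to 11.7% for Ctsh, an aminopeptidase.

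**Figure D1:**
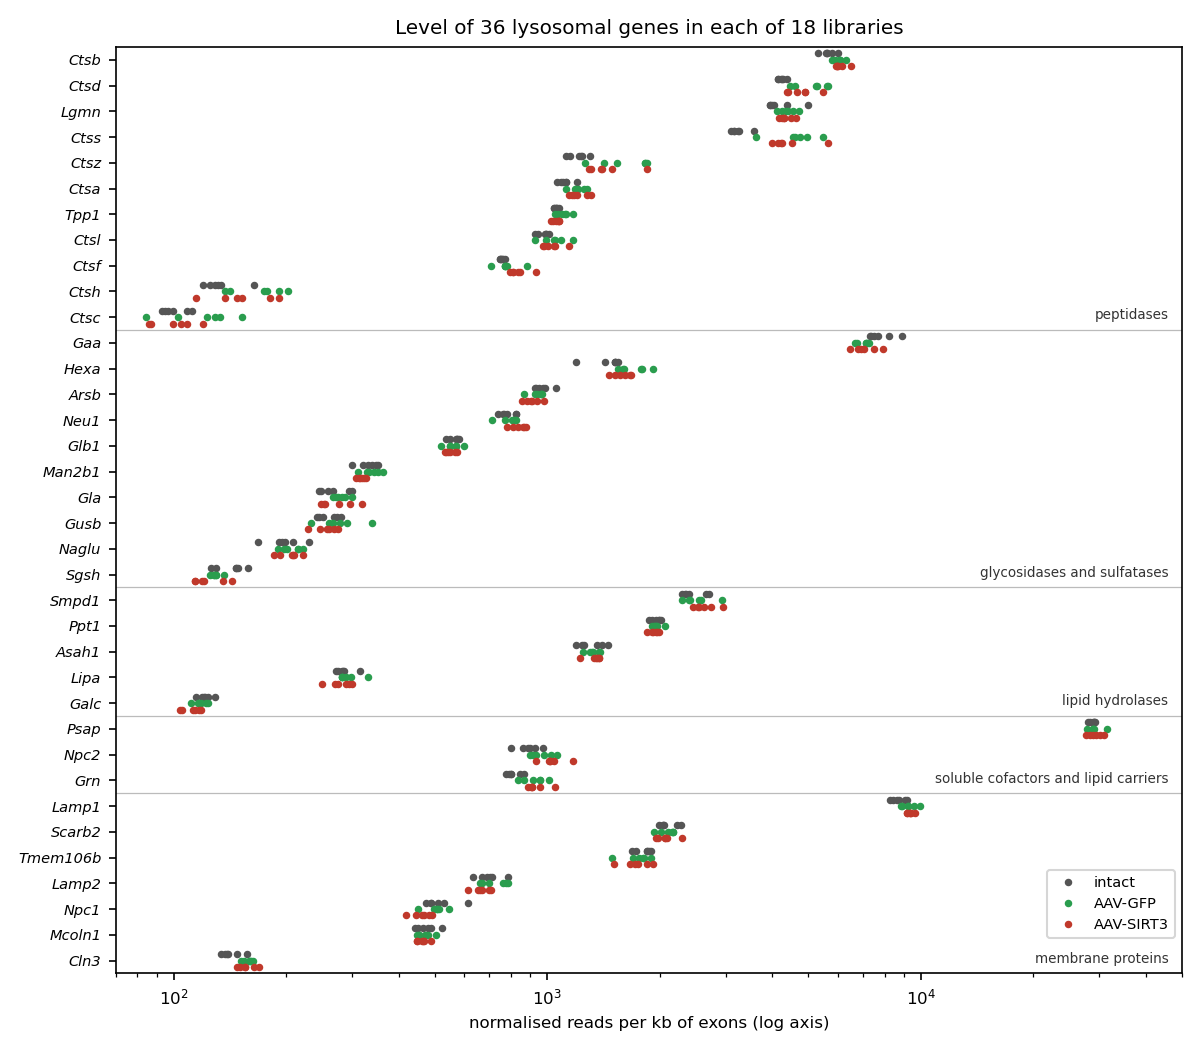
Normalised reads per kb of exons (x axis, log scale) of each lysosomal gene (rows, in blocks by role), with 1 point per library in grey for intact, green for AAV-GFP and red for AAV-SIRT3 (6 each). Psap lies apart at the right, and for most genes the 3 groups overlap, while Ctss and Ctsd have all grey points to the left of the green and red ones.

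Compared with intact mice, 3 of the 36 genes rose in AAV-GFP and 0 fell, all 3 of them peptidases: Ctss, Ctsz and Ctsd. That is 8.33% of the members, where 1.84% of all tested genes were called (0.823% higher, 1.02% lower). In AAV-SIRT3 against intact, 10 rose and 2 fell, or 33.3% of the members against 21.7% of all tested genes (11.3% higher, 10.3% lower). Those that rose were Ctsa, Ctsb, Ctsd, Ctsf, Ctss, Ctsz, Grn, Npc2, Lamp1 and Cln3, and those that fell were Sgsh and Npc1. No member was called between AAV-SIRT3 and AAV-GFP, where 0.113% of all tested genes were (0.036% higher, 0.0771% lower). Both comparisons with intact mice use the same 6 intact libraries, so their values for a gene are not independent.

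Most differences were small beside those of single peptidases. The median log2 difference of the 36 genes was 0.06 in AAV-GFP against intact, with 27 above 0, where the median of all tested genes was 0.00074. In AAV-SIRT3 against intact it was 0.03, with 21 above 0 and a median of all genes of -0.0049, and between the vectors it was -0.02, with 11 above 0 and a median of all genes of -0.0041. All 6 AAV-GFP libraries lay above all 6 intact libraries for Ctsd, Ctss and Hexa, and below them for Gaa, where 1.86% of all tested genes had groups that did not overlap (0.874% higher, 0.988% lower). In AAV-SIRT3 against intact the same held, upward, for Ctsd, Ctsf, Ctss and Grn, where 9.33% of all tested genes did not overlap (5.01% higher, 4.32% lower). Summed over the 36 genes, normalised reads ran from 308546 to 323752 in intact, 312382 to 336149 in AAV-GFP and 314560 to 332317 in AAV-SIRT3 libraries, so the sums overlapped.

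**Figure D2:**
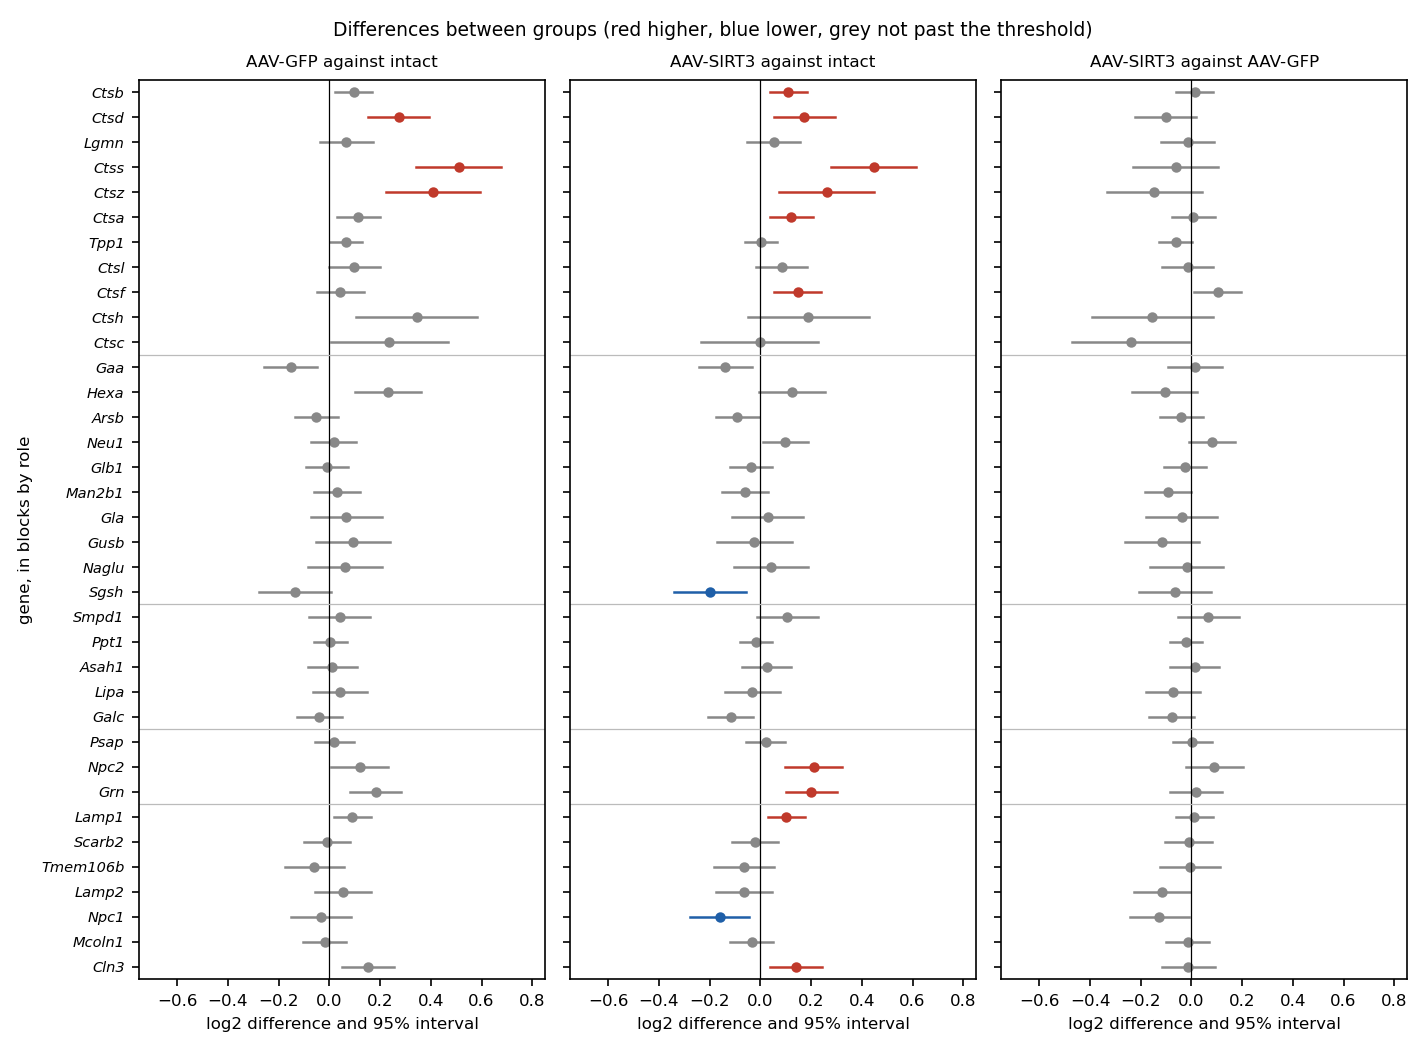
Log2 difference with its 95% interval (x axis) for each gene (rows, in blocks by role) in the 3 comparisons, red where higher past the threshold, blue where lower and grey otherwise. Peptidases hold the 3 red points of AAV-GFP against intact and 6 of the 10 of AAV-SIRT3 against intact, and the panel of AAV-SIRT3 against AAV-GFP is grey throughout.

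Among the peptidases 3 of 11 were higher in AAV-GFP and 6 of 11 in AAV-SIRT3 than in intact mice, and 0 lower in either. That is 27.3% and 54.5% of the 11, where 0.823% and 11.3% of all tested genes were higher. The median log2 difference of the 11 was 0.11 and 0.12. Ctss (chr3:95526786-95556403, plus strand in GENCODE M21) had the largest difference. Its normalised reads had a lowest value, median and highest value of 4219, 4354 and 4859 in intact libraries, of 4927, 6352 and 7437 in AAV-GFP and of 5409, 5758 and 7676 in AAV-SIRT3. Every library of either vector group was above every intact library, and the vector groups overlapped widely. The log2 difference from intact was 0.51 ± 0.08 (SE) in AAV-GFP, or 43.3% higher (limma with Benjamini-Hochberg adjustment, adjusted p = 0.00317, exact permutation p = 0.00216, the smallest that 6 against 6 libraries can give). In AAV-SIRT3 it was 0.45 ± 0.08, or 37.2% higher (adjusted p = 0.00117, exact permutation p = 0.00216). AAV-SIRT3 stayed past the threshold when any 1 library was left out (adjusted p up to 0.00372). So did AAV-GFP (up to 0.0127), but without the 3 intact libraries of low Prkcd its adjusted p was 0.0514.

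Ctsz, a carboxypeptidase abundant in phagocytes (chr2:174427493-174439039, minus strand), ran from 1613 through a median of 1762 to 1871 in intact libraries. In AAV-GFP the lowest, median and highest values were 1819, 2421 and 2658, and in AAV-SIRT3 they were 1866, 2017 and 2664. One AAV-GFP and one AAV-SIRT3 library reached into the top of the intact range, and 35 of the 36 pairs of libraries were higher in either vector group. Its log2 difference was 0.41 ± 0.09 in AAV-GFP (limma, Benjamini-Hochberg adjusted p = 0.0239) and 0.26 ± 0.09 in AAV-SIRT3 (adjusted p = 0.0413). Without intact replicate 3 or 4 or AAV-GFP replicate 2, 3 or 5 the first of these missed the threshold (adjusted p up to 0.0622).

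For Ctsd (chr7:142375911-142388038, minus strand) the intact libraries lay close together, from 9726 through a median of 9968 to 10272 normalised reads. AAV-GFP libraries ran from 10518 through 12342 to 13291 and AAV-SIRT3 libraries from 10282 through 11215 to 12887. No library of a vector group fell into the intact range, and AAV-GFP reached highest. Ctsd was 21.4% higher in AAV-GFP than in intact (log2 difference 0.27 ± 0.06, limma, Benjamini-Hochberg adjusted p = 0.0197) and 13.1% higher in AAV-SIRT3 (0.17 ± 0.06, adjusted p = 0.0362). The first of these missed the threshold without AAV-GFP replicate 5 (adjusted p = 0.0506). That library had the high summed choroid plexus level of its group. It was also highest of its group in the mean log2 level of 16 activated microglia genes (1.49 over intact). Intact replicate 2, likewise high in choroid plexus genes, had Ctsd at 9952. Exons of Gm49369 overlap those of Ctsd on the same strand, so its reads cannot be told apart there.

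Ctsf, a cysteine protease (chr19:4855130-4860918, plus strand), was the member whose 2 vector groups differed most upward. Its intact libraries spanned only 3763 to 3884 with a median of 3809.6, its AAV-GFP libraries 3552 to 4455 with a median of 3896, and its AAV-SIRT3 libraries 4006 to 4694 with a median of 4148. AAV-GFP libraries lay on both sides of the intact range, whereas all AAV-SIRT3 libraries lay above it. The log2 difference from intact was 0.15 ± 0.05 in AAV-SIRT3 (limma, Benjamini-Hochberg adjusted p = 0.0247) and 0.04 ± 0.05 in AAV-GFP (adjusted p = 0.646). Between the vectors it was 0.10 ± 0.05 and not past the threshold (adjusted p = 0.285, 95% interval 0.01 to 0.20), though it passed when AAV-GFP replicate 2 was left out (0.14, adjusted p = 0.0476).

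Ctsa, the carboxypeptidase that protects beta-galactosidase and neuraminidase (chr2:164832873-164841032, plus strand), was at 4999, 5231 and 5657 (lowest, median, highest) in intact, 5308, 5658 and 6040.1 in AAV-GFP libraries and 5389, 5624 and 6186 in AAV-SIRT3 libraries. The ranges overlapped, with the vector groups shifted upward alike. Its log2 difference was 0.12 ± 0.04 in AAV-SIRT3 (limma, Benjamini-Hochberg adjusted p = 0.0366) and 0.11 ± 0.04 in AAV-GFP (adjusted p = 0.13). Ctsb (chr14:63122462-63145923, plus strand) was at 32179, 33873 and 36247 (lowest, median, highest) in intact, 35039, 36673 and 38203 in AAV-GFP libraries and 35891, 36238 and 39418 in AAV-SIRT3 libraries. Again the ranges overlapped and both vector groups sat higher. On the log2 scale the difference was 0.11 ± 0.04 in AAV-SIRT3 (adjusted p = 0.0301) and 0.10 ± 0.04 in AAV-GFP (adjusted p = 0.136).

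The other 5 peptidases, Ctsc, Ctsh, Ctsl, Lgmn and Tpp1, were past no threshold. Ctsh had a log2 difference of 0.34 (95% interval 0.11 to 0.58) in AAV-GFP against intact, larger than that of Ctsd, with an adjusted p of 0.107 by limma. Ctsc, which activates serine proteases of immune cells, had the lowest value of all 36 genes between the vectors, a log2 difference of -0.24 (95% interval -0.47 to -0.01, adjusted p = 0.311 by limma). Its difference from intact was 0.24 in AAV-GFP and -0.0025 in AAV-SIRT3. Lgmn and Ctsl, each a processing protease of other cathepsins, differed from intact by 0.05 to 0.10 in either vector group.

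**Figure D3:**
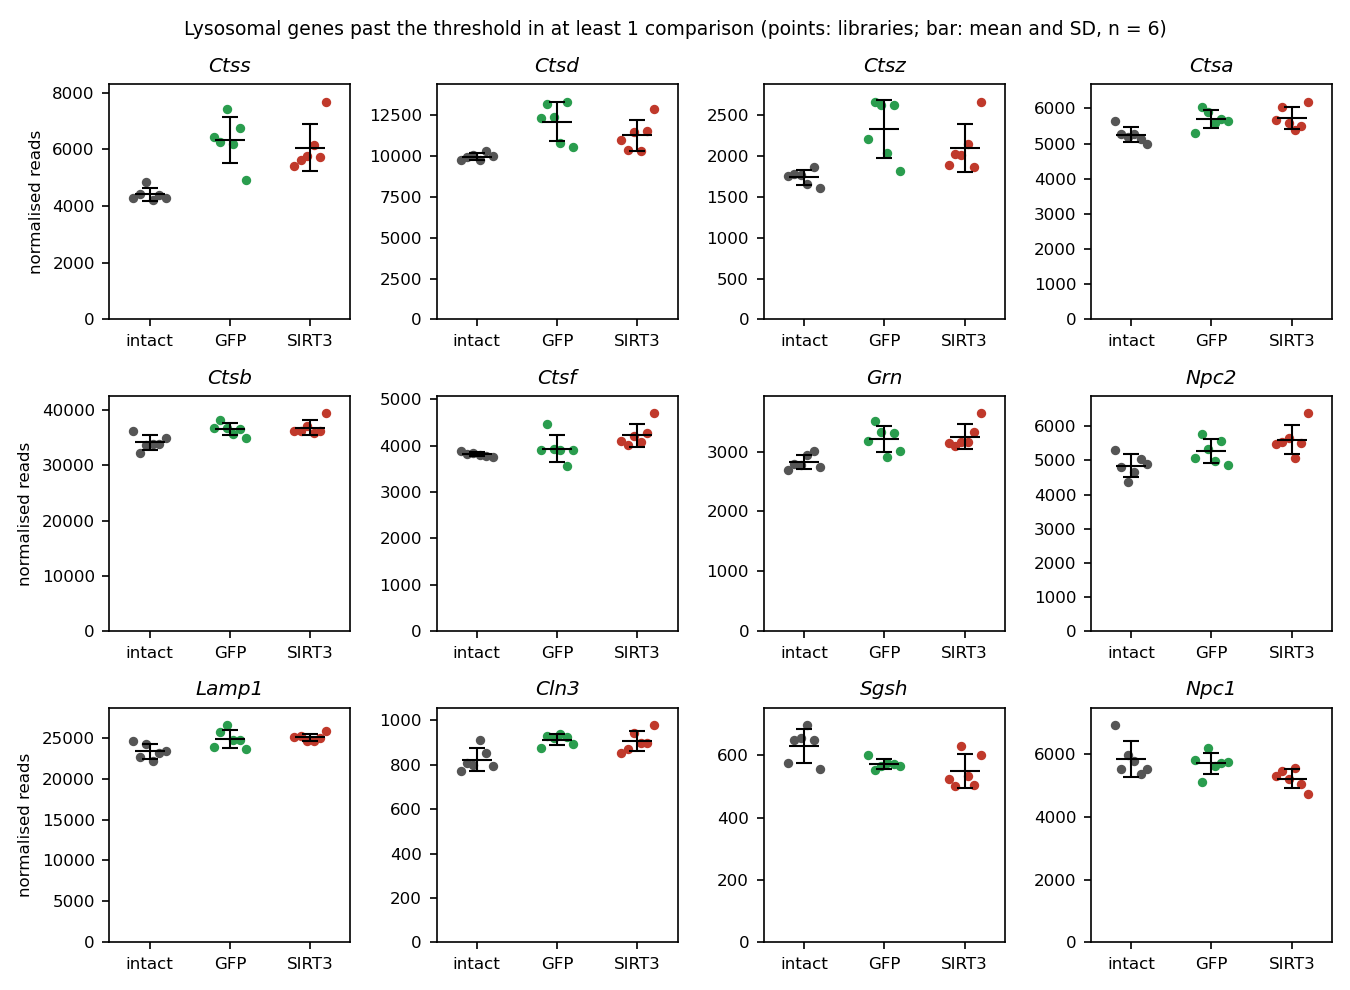
Normalised reads (y axis, linear from 0) of the 12 genes past the threshold in at least 1 comparison, with 1 point per library and a bar for mean and SD (n = 6) in each group. For Ctss the intact points end at 4859 and the vector points begin at 4927, and for Sgsh and Npc1 the AAV-SIRT3 points sit lowest.

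Glycosidases and sulfatases, which take glycans and glycosaminoglycans apart, were called once: 0 of 10 in AAV-GFP and 1 of 10, downward, in AAV-SIRT3 against intact, with median log2 differences of 0.02 and -0.03. These counts are 0% and 10% of the role, against 1.84% and 21.7% of all tested genes. The gene called was Sgsh, the heparan sulfamidase lost in Sanfilippo syndrome type A (chr11:119343425-119355536, minus strand). Its lowest, median and highest values were 555, 649 and 697 in intact, 552, 569 and 601 in AAV-GFP libraries and 503, 529 and 631 in AAV-SIRT3 libraries. All 3 groups overlapped. Against intact mice the log2 difference was -0.20 ± 0.07 in AAV-SIRT3 (limma, Benjamini-Hochberg adjusted p = 0.0414) and -0.14 ± 0.07 in AAV-GFP (adjusted p = 0.286).

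Gaa (chr11:119267887-119285454, plus strand), the highest of its role per kb, ran from 34962 through 36196 to 42526 in intact libraries, from 31938 through 34108 to 34661 in AAV-GFP and from 30823 through 33433 to 37795 in AAV-SIRT3. AAV-GFP libraries lay below all intact ones, and AAV-SIRT3 libraries reached into the intact range. Neither log2 difference passed the threshold, at -0.15 ± 0.05 in AAV-GFP (limma, Benjamini-Hochberg adjusted p = 0.106, exact permutation p = 0.00216) and -0.14 ± 0.05 in AAV-SIRT3 (adjusted p = 0.0569). Hexa, the alpha subunit of beta-hexosaminidase, is given because its AAV-GFP libraries (3089.7 to 3831) lay above all intact ones (2388 to 3083), and it was chosen after its values were seen. Its log2 difference was 0.23 ± 0.06 in AAV-GFP (adjusted p = 0.0546) and 0.12 ± 0.06 in AAV-SIRT3 (adjusted p = 0.155). The other 7, Arsb, Neu1, Glb1, Man2b1, Gla, Gusb and Naglu, lay between -0.09 and 0.10 in both comparisons with intact mice.

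Lipid hydrolases showed no call in any of the 3 comparisons. Of all tested genes, 1.84% and 21.7% were called in AAV-GFP and AAV-SIRT3 against intact and 0.113% between the vectors. Smpd1 (chr7:105554360-105558389, plus strand) was at 7643, 7906 and 9053 (lowest, median, highest) in intact, 7638, 8272 and 9789.6 in AAV-GFP libraries and 8181, 8619 and 9851 in AAV-SIRT3 libraries. The groups overlapped over most of their range, and the log2 difference from intact was 0.04 ± 0.06 in AAV-GFP (limma, Benjamini-Hochberg adjusted p = 0.758) and 0.11 ± 0.06 in AAV-SIRT3 (adjusted p = 0.198). Galc, the galactosylceramidase lost in Krabbe disease, had -0.12 in AAV-SIRT3 (adjusted p = 0.0538). Ppt1, a thioesterase that removes palmitate from proteins, Asah1, acid ceramidase, and Lipa, which cleaves cholesteryl esters, lay between -0.03 and 0.04 against intact.

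Soluble cofactors and carriers were 0 of 3 in AAV-GFP and 2 of 3, upward, in AAV-SIRT3 against intact. The 2 are 66.7% of a role of only 3 genes, against 21.7% of all tested genes called (1.84% in AAV-GFP). Grn, the granulins' precursor whose loss causes frontotemporal dementia or lipofuscinosis (chr11:102430315-102437048, plus strand), was at 2689, 2783 and 3011 (lowest, median, highest) in intact, 2907, 3245 and 3519 in AAV-GFP libraries and 3089, 3156 and 3638 in AAV-SIRT3 libraries. AAV-SIRT3 libraries lay above all intact ones, and 34 of 36 pairs were higher in AAV-GFP. From intact mice it differed on the log2 scale by 0.20 ± 0.05 in AAV-SIRT3 (limma, Benjamini-Hochberg adjusted p = 0.00647) and 0.18 ± 0.05 in AAV-GFP (adjusted p = 0.0548), a pair of values on either side of the threshold that differed by 0.02 (adjusted p = 0.898).

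Npc2, which hands cholesterol to Npc1 in the lumen (chr12:84754562-84773152, minus strand), was at 4357, 4852 and 5311 (lowest, median, highest) in intact, 4875, 5209 and 5763 in AAV-GFP libraries and 5083, 5529 and 6379.9 in AAV-SIRT3 libraries. Intact and AAV-SIRT3 overlapped in 1 of 36 pairs. Its log2 difference was 0.21 ± 0.05 in AAV-SIRT3 (limma, Benjamini-Hochberg adjusted p = 0.00907) and 0.12 ± 0.05 in AAV-GFP (adjusted p = 0.23). Grn and Npc2 passed the threshold in AAV-SIRT3 against intact whichever library was left out (adjusted p up to 0.0174 and 0.026) and without the 3 intact libraries of low Prkcd. Psap (chr10:60277627-60302597, plus strand), by far the most abundant member, was at 77071, 79541 and 80308 (lowest, median, highest) in intact, 76335, 79409 and 86634 in AAV-GFP libraries and 76094, 79935 and 84710.3 in AAV-SIRT3 libraries. The groups lay on top of each other, with log2 differences of 0.02 ± 0.04 from intact in either (95% interval -0.06 to 0.10).

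Membrane proteins were 0 of 7 in AAV-GFP and 2 higher and 1 lower of 7 in AAV-SIRT3 against intact. The share called in AAV-SIRT3 was 42.9%, against 21.7% of all tested genes (1.84% in AAV-GFP). Lamp1 (chr8:13159161-13175338, plus strand) was at 22148, 23231 and 24623 (lowest, median, highest) in intact, 23652, 24685 and 26545 in AAV-GFP libraries and 24564, 25024 and 25820.1 in AAV-SIRT3 libraries. The AAV-SIRT3 libraries were tightly grouped, and most of them lay above the highest intact library. On the log2 scale the difference was 0.10 ± 0.03 in AAV-SIRT3 (limma, Benjamini-Hochberg adjusted p = 0.0394) and 0.09 ± 0.03 in AAV-GFP (adjusted p = 0.16). Cln3, the multispan protein lost in juvenile lipofuscinosis (chr7:126571207-126585817, minus strand), was at 774, 805 and 910.1 (lowest, median, highest) in intact, 875, 923 and 939.6 in AAV-GFP libraries and 853, 897 and 980.1 in AAV-SIRT3 libraries. The highest 2 intact libraries lay within the range of AAV-SIRT3, and the highest within that of AAV-GFP. Against intact mice the log2 difference was 0.14 ± 0.05 in AAV-SIRT3 (adjusted p = 0.0489) and 0.15 ± 0.05 in AAV-GFP (adjusted p = 0.102), so the smaller of the 2 differences was the one called.

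Npc1, the cholesterol exporter of the limiting membrane, went the other way from Npc2. Its values were 5347, 5645 and 6926 (lowest, median, highest) in intact, 5110.01, 5731 and 6187 in AAV-GFP libraries and 4728, 5252 and 5558 in AAV-SIRT3 libraries. AAV-SIRT3 libraries were lowest, with an overlap in all pairs of groups. From intact mice it differed on the log2 scale by -0.16 ± 0.06 in AAV-SIRT3 against intact (limma, Benjamini-Hochberg adjusted p = 0.0453) and -0.03 ± 0.06 in AAV-GFP (adjusted p = 0.795). Scarb2, the receptor that sorts glucocerebrosidase, Tmem106b, Lamp2 and Mcoln1, the lysosomal calcium channel, lay between -0.06 and 0.05 in both comparisons with intact mice.

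Several of the calls of AAV-SIRT3 against intact depended on single libraries. Leaving out AAV-SIRT3 replicate 6, which was the highest of its group for each of the 10 members that rose, left 4 members called (Ctss, Grn and Npc2 upward and Sgsh downward) where 12 were called with it. With that library left out the adjusted p was 0.0637 for Ctsf, 0.0931 for Ctsd, 0.108 for Ctsz, 0.0896 for Ctsa, 0.108 for Npc1 and 0.111 for Cln3 (limma, Benjamini-Hochberg). Ctsb and Lamp1 lost the call without that library too, and their largest adjusted p was 0.0766 without intact replicate 2 and 0.0968 without intact replicate 4. Sgsh reached 0.101 without intact replicate 4. Of the 18 fits that leave out 1 library, Ctsa lost the call in 8, Ctsb in 6, Ctsd in 8, Ctsf in 1, Ctsz in 9, Sgsh in 8, Lamp1 in 8, Npc1 in 11 and Cln3 in 15. Without the 3 intact libraries of low Prkcd, 4 members were called in AAV-SIRT3 against intact (Ctss, Grn, Npc2 and Lamp1) and 0 in AAV-GFP against intact. Calls among all tested genes fell in both comparisons too, in AAV-GFP against intact from 358 to 10. Without those 3 libraries the adjusted p was 0.163 for Ctsz and 0.189 for Ctsd in AAV-GFP against intact. For AAV-SIRT3 against intact it was 0.0644 for Ctsb, 0.0809 for Ctsa, 0.0939 for Ctsz, 0.103 for Ctsf, 0.125 for Ctsd, 0.134 for Sgsh, 0.235 for Npc1 and 0.248 for Cln3.

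**Figure D4:**
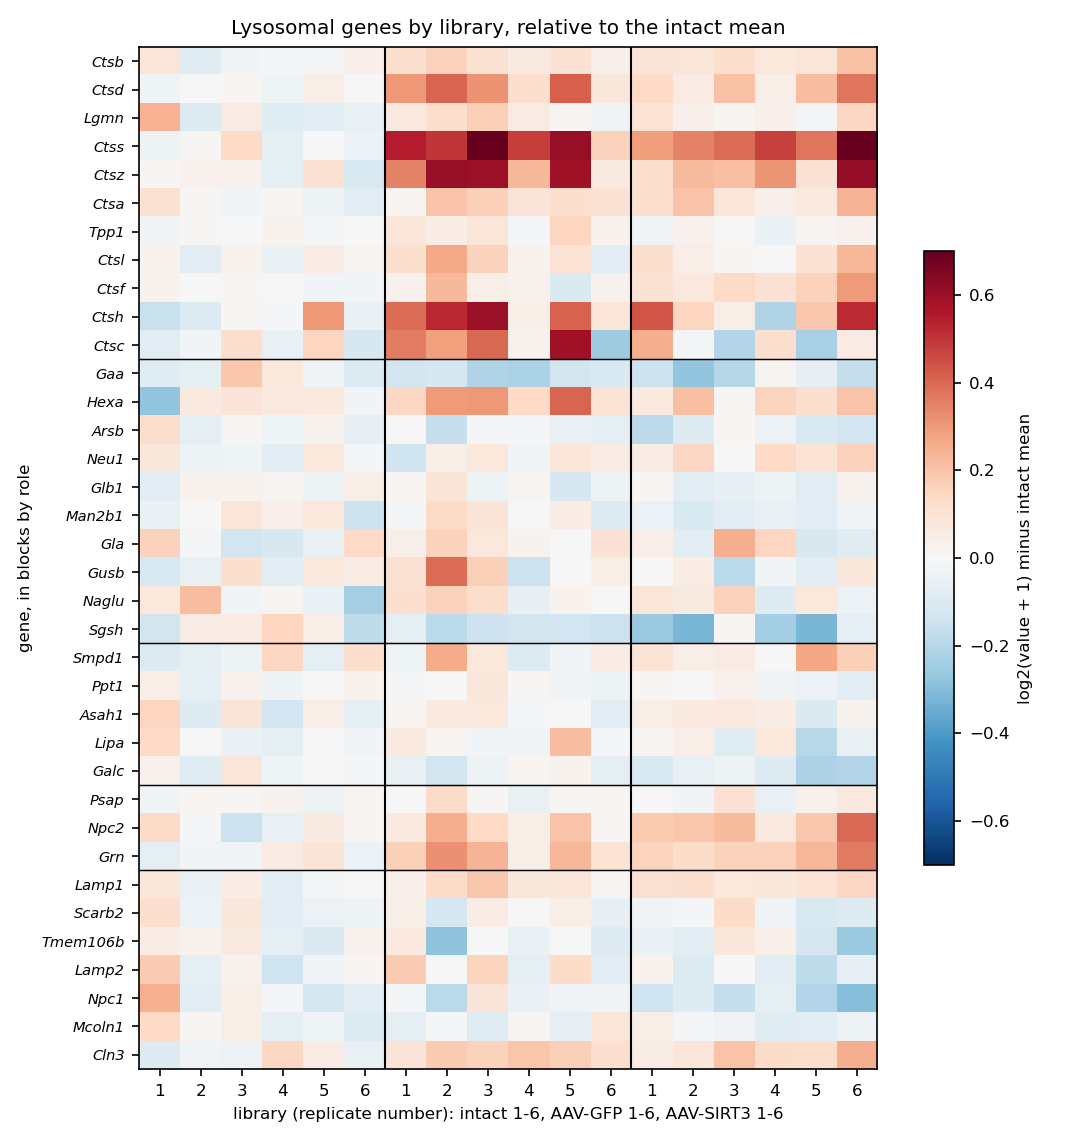
Log2(value + 1) of each gene (rows, in blocks by role) in each library (columns) minus its intact mean, from blue (lower) to red (higher). Ctss and Ctsz are red across both vector groups, and Sgsh is blue in most vector libraries. For Ctss, Ctsz, Ctsd and Ctsh, AAV-GFP replicate 6 is pale and AAV-SIRT3 replicate 6 dark.

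Between AAV-SIRT3 and AAV-GFP the 36 log2 differences ran from -0.24 for Ctsc to 0.10 for Ctsf. With limma, 5 members had an unadjusted p under 0.05, none passed after adjustment, and edgeR and DESeq2 on the recovered reads also called 0. The smallest adjusted p was 0.285. Over the 36 genes the 95% intervals reached from -0.47 to 0.20 at their outermost, and for Psap, Ctsb and Lamp1 they stayed within -0.07 and 0.09, so a missed threshold covers different widths. No member had groups that did not overlap, where 0.751% of all tested genes had such groups (0.37% higher, 0.381% lower).

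Microglial markers were also higher in the vector groups. Of 16 homeostatic microglial genes, 5 rose in AAV-GFP and 7 in AAV-SIRT3 against intact and 0 fell, and of 16 genes of activated microglia 12 and 8 rose and 0 fell, where 0.823% and 11.3% of all tested genes were higher. None was at 0 in any library except Cst7, which was at 0 in at least 1 intact library. The summed level of the homeostatic list ran from 23967 to 26438 in intact, 26211 to 32433 in AAV-GFP and 27128 to 31903 in AAV-SIRT3 libraries. The activated list summed to 82093 to 99436, to 103255 to 123914 and to 96821 to 119115. P2ry12, a receptor of resting microglia, was at 1809 ± 174, 1763 ± 244 and 1821 ± 166, while Aif1 was at 197 ± 11.2, 274 ± 30.8 and 281 ± 51.0 (SD, n = 6 each). Between the vectors 0 homeostatic genes were called and 2 activated ones were lower in AAV-SIRT3, Gpnmb by -2.08 and Clec7a by -1.67 on the log2 scale. Gpnmb passed in all 18 fits that leave out 1 library and Clec7a in 14, missing the threshold without AAV-GFP replicate 1, 3 or 5 or AAV-SIRT3 replicate 5 (adjusted p up to 0.0878 over all alternatives, limma). The library AAV-SIRT3 replicate 6, highest of its group for Ctss, was also highest of its group in the mean log2 level of both lists (0.31 and 1.03 over intact).

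Within groups, the level of each member was then fitted against the mean log2 level of the 16 homeostatic genes, a fit added after the data were seen. Ctss rose by 1.93 ± 0.27 (SE) log2 units per log2 unit of that level (limma, Benjamini-Hochberg adjusted p = 0.00947). Ctsz had a slope of 1.68 ± 0.42, Ctsc of 1.67 ± 0.58, Ctsh of 1.61 ± 0.62 and Ctsd of 1.01 ± 0.28, none past the threshold. Psap had 0.04 ± 0.23. Without the 2 libraries farthest in that level, AAV-GFP replicates 3 and 6, the slope of Ctss was 1.70 with an adjusted p of 0.733, so its call rested on them. The part of microglia in the group differences was not tested.

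**Figure D5:**
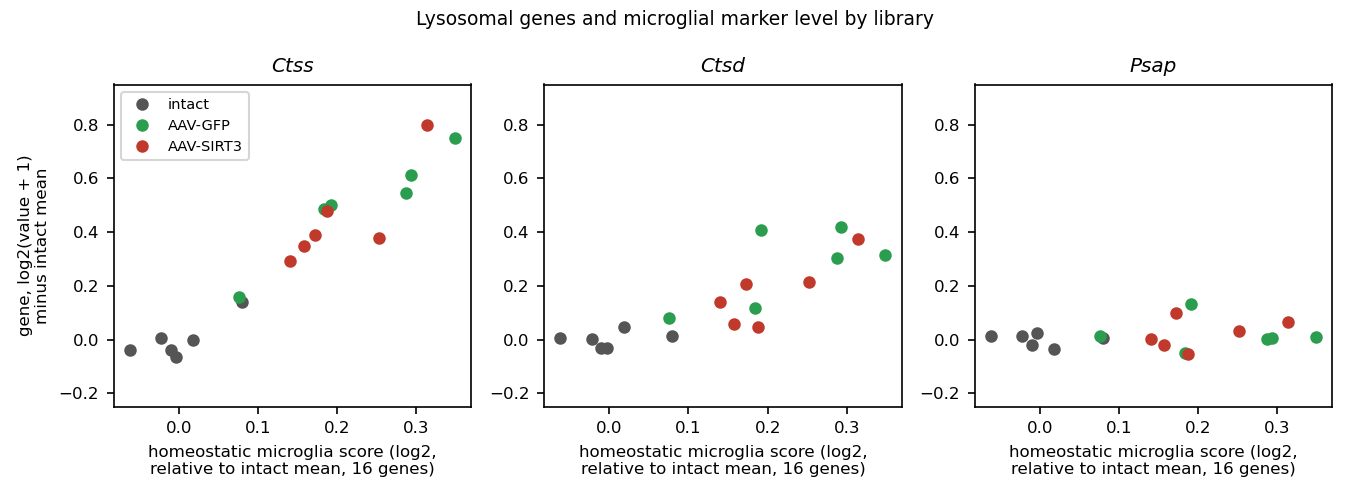
Log2 level of Ctss, Ctsd and Psap minus the intact mean (y axes) against the mean log2 level of 16 homeostatic microglial genes relative to intact (x axes), with 1 point per library. Ctss and Ctsd sit higher in libraries with a higher marker level and Psap stays near 0. The marker level itself differs between the groups.

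Of the other marker lists, 2 of 12 astrocyte genes were higher in each comparison with intact, 0 and 3 of 10 oligodendrocyte genes and 2 and 7 of 10 thalamus genes, and none of these lists had a gene lower (0.823% and 11.3% of all tested genes were higher). Gfap, an intermediate filament of astrocytes, was at 17682 ± 2679.95 in intact libraries, at 25349.7 ± 5934 in AAV-GFP ones and at 17078 ± 2284 in AAV-SIRT3 ones. Its rise in AAV-GFP against intact was called (log2 difference 0.50, limma, Benjamini-Hochberg adjusted p = 0.0388), in 10 of 18 fits that leave out 1 library. Between the vectors 1 astrocyte gene was lower in AAV-SIRT3 (8.33% of the list, against 0.113% of all tested genes called). For oligodendrocyte and thalamus genes that count was 0. The summed thalamus list ran from 56193 to 98616 in intact, 85821 to 96933 in AAV-GFP and 83877 to 105910.0 in AAV-SIRT3, with no gene at 0. Intact replicates 1, 3 and 5, those of low Prkcd, were the lowest, at 56193, 60220 and 59696. Replicates 2, 4 and 6 of that group were at 98616, 79847 and 92961. Border macrophage genes had 0 of 8 called in any comparison, the summed level of these genes being 596 to 1173 in intact, 585 to 1317 in AAV-GFP and 593 to 1042 in AAV-SIRT3. With a thalamus score as covariate, 1 member (Ctss) was called in AAV-GFP and 5 in AAV-SIRT3 against intact. Calls among all tested genes fell in that fit too, from 4214 to 1392 in AAV-SIRT3 against intact. Those for AAV-GFP, also fewer, are given with the alternative fits.

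Other genes of the lysosome were read from 5 lists that do not hold the 36. Among 38 other luminal proteins, 0 were called in AAV-GFP against intact, and 2 rose and 3 fell in AAV-SIRT3 against intact, with median log2 differences of 0.0043 and -0.0037. The calls in AAV-SIRT3 were 13.2% of the list, where 21.7% of all tested genes were called (1.84% in AAV-GFP). Creg1 (0.26), a secreted glycoprotein, and Gm2a (0.15), the GM2 activator, rose, while Hyal1 (-0.45), a hyaluronidase, Idua (called in 12 of 18 fits that leave out 1 library) and Naaa fell.

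Among 31 tested other membrane proteins, 4 rose in AAV-GFP against intact and 0 fell. They were Slc11a1 (0.64), a metal exporter of phagosomes, Cd68 (0.63), Cd63 (0.25) and Laptm5 (0.25). Cd68, a phagocyte membrane protein, was at 378 ± 36.7 in intact, 599.8 ± 142 with GFP and 405 ± 63.8 with SIRT3. In AAV-SIRT3 against intact 3 rose, Laptm5 (0.21) among them, and 1 fell (Abca2, -0.13). In each comparison with intact the calls were 12.9% of the list, against 1.84% and 21.7% of all tested genes. With 1 library left out, the calls in AAV-GFP held in 18 of 18 fits for Cd63, in 15 each for Cd68 and Laptm5 (lost without intact replicate 4 or AAV-GFP replicate 3 or 5) and in 8 for Slc11a1 (adjusted p up to 0.173 over all alternatives, limma). Of 19 tested subunits of the vacuolar ATPase, the proton pump, 0 were called in AAV-GFP and 10 rose in AAV-SIRT3 against intact, or 52.6% against 21.7% of all tested genes (11.3% higher), with a median log2 difference of 0.10 over the 19. Atp6v1f (0.32), Atp6v0b (0.22), Atp6v1g1 (0.20) and Atp6v0d1 (0.18) had the largest. Between the vectors 0 subunits were called, and the count in AAV-SIRT3 against intact was 5 without the 3 intact libraries of low Prkcd and 3 with the thalamus covariate. Calls among all tested genes fell in both of these fits too, with the covariate from 4214 to 1392.

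Regulators and sorting factors gave 1 lower of 24 in AAV-GFP and 7 higher and 3 lower in AAV-SIRT3 against intact, or 4.17% and 41.7% of the list against 1.84% and 21.7% of all tested genes. Igf2r, the mannose 6-phosphate receptor that carries many of the 36 enzymes, fell in both, by -0.21 ± 0.05 (limma, Benjamini-Hochberg adjusted p = 0.0359) and -0.33 ± 0.05 (adjusted p = 0.000617), from 2614 ± 112 in intact to 2256 ± 158 in AAV-GFP and 2086 ± 141 in AAV-SIRT3. With 1 library left out, its call held in 18 of 18 fits in AAV-SIRT3 and in 9 in AAV-GFP, lost without any of intact replicates 1 to 5 or AAV-GFP replicates 2, 3, 4 and 6 (adjusted p up to 0.23 over all alternatives, limma). Lamtor4 (0.36) and Lamtor2 (0.25), of the Ragulator complex, and Ap1s1 (0.27), of an adaptor for Golgi export, rose in AAV-SIRT3. Tfeb and Tfe3 themselves were called in neither, with log2 differences of 0.11 and 0.0016 in AAV-SIRT3 against intact. Of 6 tested cathepsin inhibitors, 2 rose in AAV-GFP (Cst7 and Cst3) and 4 in AAV-SIRT3 (Cst7, Cst6, Cst3 and Cstb) against intact. That is 33.3% and 66.7% of the list, against 1.84% and 21.7% of all tested genes called. The calls held in 12 of 18 such fits for Cst3 in AAV-GFP and in 6 of 18 for Cstb in AAV-SIRT3. Cst3, cystatin C, was 0.22 and 0.27 higher on the log2 scale, and Cst7, cystatin F, a marker of activated microglia, had means of 3.72 in intact, 71.0 with GFP and 20.9 with SIRT3.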

How the data were processed

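The deposited table holds a signal per gene that, per the file's name, consists of HTSeq read counts normalised by the authors with DESeq2. HISAT2 2.1.0, DESeq2 1.34.0 and mm10 are named in the submitters' processing notes. Annotation and strand setting are not given in the sources used here, so reads of exons that overlap a gene on the other strand (Ctsa, Ctsb, Ctsl, Ctsz, Grn, Lamp1, Cln3, Sgsh, Npc1, Hexa, Arsb, Galc and Ppt1) may not be told apart. With the size factors restored, 100% of the values above 0 were whole reads (tolerance 1e-06). Replicates are separate mice.

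Values were taken as log2(value + 1), so low genes' differences are understated. The 19443 genes that reached 10 in 6 or more of the 18 libraries entered 1 limma 3.58.1 model of 3 groups in R 4.3.3 with a variance trend, 15 degrees of freedom left and Benjamini-Hochberg adjustment over all tested genes at 0.05. "Called" means past that threshold. Single members were also compared by two-sided exact permutation tests. edgeR 4.0.16 on the recovered reads called 362, 4086 and 24 genes in AAV-GFP and AAV-SIRT3 against intact and between the vectors. Also tried were DESeq2 1.42.0, quantile normalisation, TMM factors, a pseudocount of 0.5 or 10, no filter, a mean of at least 50, fits of 2 groups, a replicate block, a thalamus covariate, removal of a trend with transcript length, leaving out each library and, chosen after seeing the data, leaving out 3 intact libraries of low Prkcd. Positions and exonic lengths are from GENCODE M21 (GRCm38), promoters from RefSeq.

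Named with values in all groups are members past the threshold in any comparison and the highest per kb of each role, and up to 4 genes of each other list. The members and lists were chosen with earlier results of these data known. Lists were described by counts, without set tests. Marker lists whose calls are not described in full above gave these calls against intact. In AAV-GFP, 2 dopaminergic genes (Slc6a3 among them) and 4 anterior pituitary genes were lower. In AAV-SIRT3, 3 pan-neuronal and 1 endothelial genes were higher, and 1 pan-neuronal, 4 endothelial, 2 choroid plexus and 4 anterior pituitary genes were lower. Of all tested genes, 1.84% and 21.7% were called in these comparisons. The procedure was also run on simulated independent libraries with the same dispersion for every gene. Shifts shared by many genes of a library, as in choroid plexus genes, were not simulated, so that run gives no error rate for these data.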

Additional observations from a re-analysis of the deposited data

Results flagged for a closer look

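In 108 groups of 6 libraries, 1 per member and treatment, 11 held a library far from the others of its group by Dixon's test at the 95% level, where chance gives about 1 in 20, or 5.4. AAV-SIRT3 replicate 6 stood apart for 3 peptidases: Ctsb at 39418 normalised reads (the next library was at 37199), Ctss at 7676 (6150.1) and Ctsz at 2664 (2152). The effect of that library on the calls is given with the results. Intact replicate 3 was apart for Ctss at 4859 (4433) and intact replicate 5 for Ctsh at 738 (603). Intact replicate 1 was apart for Hexa, at 2388 below the next library (2855), and for Lipa, at 2136 above it (1933). Lipa was also apart in AAV-GFP replicate 5, at 2251 (2028). Asah1 was low in AAV-SIRT3 replicate 5 at 4146 (4521), Ppt1 was high in AAV-GFP replicate 3 at 7582 (7226), and Psap was high in AAV-GFP replicate 2 at 86634 (79687).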

How the results depend on the processing

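Over 31 alternative fits (18 that leave out 1 library and 13 others) no called member changed sign, and Ctss, Grn and Npc2 kept their calls in AAV-SIRT3 against intact in all 31. The number of members called in AAV-GFP against intact, 3 as reported, was 1 to 5 with 1 library left out, 5 with a mean filter of 50, 6 with DESeq2, 1 with the thalamus covariate and 0 without the 3 intact libraries of low Prkcd. In AAV-SIRT3 against intact it was 12 as reported, 4 to 13 with 1 library left out, 4 with no filter, 5 with the thalamus covariate and 4 without those 3 libraries. Between the vectors it was 0 in all but 1 fit and 1 without AAV-GFP replicate 2. Calls among all tested genes in AAV-GFP against intact were 358 as reported, 129 to 685 with 1 library left out, 164 with no filter, 999 with DESeq2, 199 with the 2 groups alone, 21 with the thalamus covariate and 10 without the 3 intact libraries. In AAV-SIRT3 against intact they were 4214, 3287 to 4634 with 1 library left out, 1392 with the thalamus covariate and 1686 without the 3 intact libraries. Between the vectors they were 22, 5 to 862 with 1 library left out, 311 with DESeq2 and 8 with the 2 groups alone. The cause was not tested, beyond the fewer libraries that some fits hold.

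Replicate numbers are shared by the 3 groups, but same-numbered libraries did not deviate together (correlations from -0.0953 to 0.175, 1 of 18 above 0.1), so the numbers were not taken to pair the mice. With a replicate block, 4, 6 and 0 members were called in AAV-GFP and AAV-SIRT3 against intact and between the vectors, and 13 genes overall between the vectors, and 1 of 18 libraries correlated best with its own number, a hint from the data and not from the design. Depth limits low values most, and the lowest value of any member in any library was 448 normalised reads (Naglu).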
